A study of Homo sapiens with 16 samples.

Results

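The 78 genes described here encode proteins of the mitochondrial ribosome (mitoribosome). They are the genes of the count table whose symbol is MRPL or MRPS followed by a number and, in some, a letter, out of 58051 genes in the table, of which 56948 carried a symbol. By symbol, 49 belong to the large subunit (MRPL) and 29 to the small subunit (MRPS), and no measured value entered the choice. They lie on 21 chromosomes, and all 78 passed the filter on low counts in both comparisons.

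The mitoribosome translates the few messenger RNAs of the mitochondrial genome, all of which encode subunits of the respiratory chain and the ATP synthase. Its ribosomal RNAs come from mitochondrial DNA, but all of its proteins are encoded in the nucleus, made in the cytosol and imported. The large subunit holds the peptidyl transferase centre and the exit tunnel, and the small subunit binds the messenger RNA and decodes it. Some of these proteins have bacterial counterparts and others are found only in mitochondria, and free ribosomal proteins that are not built into a subunit are degraded.

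The RNA came from LNCaP, an androgen-responsive line of human prostate cancer cells, used at passage 20 throughout. In the first experiment, cells were transfected with the Allstar control siRNA (siCtrl) or an siRNA against XBP1 (siXBP1) for 2 days. In the second, cells received DMSO (Vehicle) or 10 µM MKC8866, an inhibitor of the RNase of IRE1, for 24 h. All 4 groups, controls included, then had 30 nM thapsigargin, which empties the calcium store of the endoplasmic reticulum, for 3 h, so every level is that of stressed cells. Each group held 4 libraries of 1 cell line. The study calls them independent samples and experimental replicates without saying whether each came from its own culture, so the p-values measure the spread between these libraries, which may be partly technical.

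The libraries held 28713607 to 34509488 counted fragments. XBP1 fell with the knockdown (log2 fold change −2.85, SE 0.05) and DNAJB9, a direct target, fell in both comparisons (−2.31 and −1.87). All 8 luminal prostate markers were expressed, KLK3 between 344 and 942 CPM (counts scaled to library size), while PTPRC, COL1A2 and PECAM1 had at most 2 counts in any library. Of the 7 markers of other cells, COL1A1 was the highest at 24.9 to 36.3 CPM, and KRT14 reached 1.19 CPM. The luminal markers moved with the treatments: they summed to 3560 to 3768 CPM in siCtrl and 3055 to 3151 in siXBP1, where 4 of the 8 were called lower, and to 3576 to 3755 in Vehicle and 3893 to 4073 with MKC8866. Their part in the results below was not tested.

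The mitoribosomal protein genes were expressed at very unequal levels. Over the 16 libraries and per kb of exonic length, the median gene stood at 17.5 CPM per kb, with quartiles of 9.44 and 37.7. The large subunit genes had a median of 18.1 and the small subunit genes one of 16.3 CPM per kb. The highest level was that of MRPS35, between 85.8 and 104.5 CPM per kb across libraries, followed by MRPS34 (66.8 to 92.2) and MRPL49 (64.9 to 81.1). The ranges of neighbours in this order overlapped, MRPS34 lying above MRPS35 in 3 of the 16 libraries and MRPL49 above MRPS34 in 3, so the order of the 3 was not beyond the spread between libraries. The lowest levels were those of MRPS24, MRPL53 and MRPL38, at a mean of 0.115, 0.822 and 1.06 CPM per kb.

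Few counts and shared exons limit these values, and their part in the low levels was not tested. MRPS24 had 5 to 14 counts per library and shares 606 of its exonic bases (23.2%) with the readthrough gene URGCP-MRPS24 on the same strand. MRPL53 had 18 to 47 counts and shares 45.2% of its exonic bases with CCDC142. MRPL38 had 94 to 138 counts and shares 41.1%. By contrast, MRPS18A shares 47.0% and had a mean of 35.9 CPM per kb. A fragment in bases that belong to 2 genes was assigned to neither, so the level of such a gene can understate its transcript. Of the 78 genes, 40 share at least 1 exonic base with another gene, 10 share over 25%, and 1, MRPL12, shares over 50%. Among replicates the genes were tight, with a median coefficient of variation of 5.18% over all genes and groups.

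Summed over each subunit, the levels of the groups lay close together. The 49 large subunit genes summed to 1245 ± 47.5 CPM per kb (SD, n = 4) in siCtrl and 1218 ± 33.5 in siXBP1, and the ranges overlapped. In Vehicle the sum was 1267 ± 31.6 and with MKC8866 1229 ± 10.7, again with overlapping ranges. Within each of the 4 replicate numbers MKC8866 had the lower sum, but no label states that the numbers pair the libraries. The small subunit genes summed to 721.7 ± 20.4 CPM per kb in siCtrl and 716.1 ± 21.9 in siXBP1. They summed to 743.9 ± 8.53 in Vehicle and 716.9 ± 6.97 with MKC8866, and here the highest MKC8866 library (726.9) lay under the lowest Vehicle library (731.7). The ratio of the large to the small subunit sum stayed between 1.67 and 1.75 in all 16 libraries. These sums lean on the most abundant genes, and no test was made of them.

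**Figure D1:**
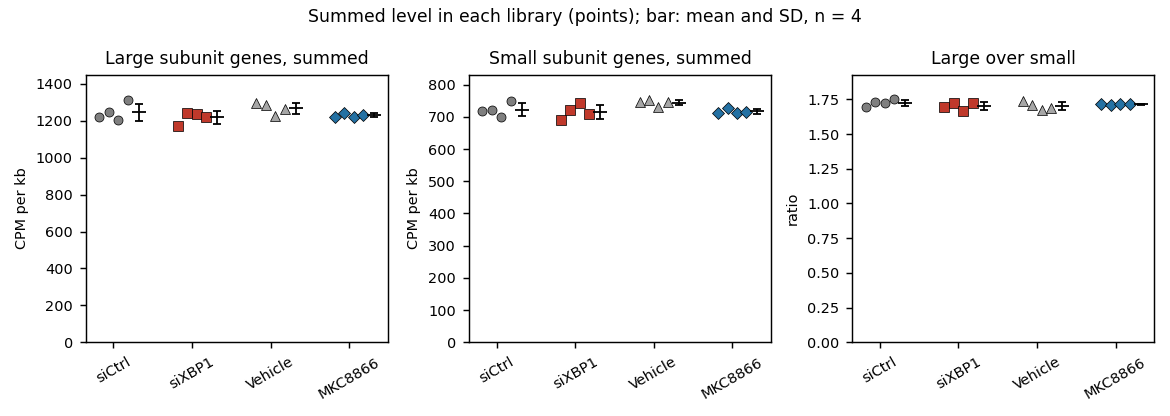
Summed level of the 49 large and 29 small subunit genes (CPM per kb of exonic length) and their ratio in each of the 16 libraries, by group, with the mean and SD of 4 libraries beside the points. The sums and the ratio, which runs from 1.67 to 1.75, differ little between groups, and the small subunit sums of MKC8866 lie under those of Vehicle.

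The region before the start of 4 of the genes is shown because the results below turn on them. MRPL49, MRPL55 and MRPS18B were called lower in both comparisons, and MRPL50 had the largest change. The 250 bases before the annotated start are from RefSeq (GRCh38.p14), given 5′ to 3′ along the gene's strand at chr11:65121933-65122182 (plus strand, the first of 2 starts listed) for MRPL49, chr1:228109300-228109549 (minus) for MRPL55, chr6:30617590-30617839 (plus) for MRPS18B and chr9:101398619-101398868 (minus) for MRPL50. Capitals mark any match, on either strand, to the 8 motifs named in the next paragraph.
MRPL49: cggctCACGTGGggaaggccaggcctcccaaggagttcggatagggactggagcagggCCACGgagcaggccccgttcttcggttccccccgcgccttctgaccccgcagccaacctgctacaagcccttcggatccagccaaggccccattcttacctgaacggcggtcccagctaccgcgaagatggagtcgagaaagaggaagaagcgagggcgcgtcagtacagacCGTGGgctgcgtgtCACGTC
MRPL55: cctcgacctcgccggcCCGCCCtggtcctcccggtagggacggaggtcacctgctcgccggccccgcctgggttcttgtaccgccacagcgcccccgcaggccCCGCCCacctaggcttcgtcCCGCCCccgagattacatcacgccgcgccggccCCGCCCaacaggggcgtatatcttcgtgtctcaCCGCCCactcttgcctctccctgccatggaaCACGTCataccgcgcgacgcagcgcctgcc
MRPS18B: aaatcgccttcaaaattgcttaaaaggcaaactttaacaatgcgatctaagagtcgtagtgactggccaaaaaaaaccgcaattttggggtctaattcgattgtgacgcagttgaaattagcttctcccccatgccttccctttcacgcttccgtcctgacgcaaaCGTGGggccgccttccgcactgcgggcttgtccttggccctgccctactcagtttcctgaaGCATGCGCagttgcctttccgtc
MRPL50: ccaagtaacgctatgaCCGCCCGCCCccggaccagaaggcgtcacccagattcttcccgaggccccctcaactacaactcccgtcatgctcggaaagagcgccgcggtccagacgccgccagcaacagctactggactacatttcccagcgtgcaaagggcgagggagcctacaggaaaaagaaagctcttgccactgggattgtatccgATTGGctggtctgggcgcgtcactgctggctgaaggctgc

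Motifs were counted in the 250 bases before and 50 bases after each start, on both strands, for the 69 genes of the family with a RefSeq entry and for 27305 genes in all, a gene counting once over all its starts. The ETS core CCGGAAG, read by GABPA among others, was held by 30 of the 69 (43.5%) against 12.2% of all genes. The YY1 motif AAGATGGC was held by 21 (30.4%) against 3.52%, and the NRF1 core GCGCATGC by 6 (8.70%) against 3.68%. The SP1 box GGGCGG was held by 42 (60.9%) against 48.3%, and CCAAT by 23 (33.3%) against 39.7%. Over the 15843 protein-coding genes alone the shares were 16.5% for ETS, 4.66% for YY1, 4.89% for NRF1, 64.3% for SP1 and 42.1% for CCAAT, so that the SP1 share of the family lay above that of all genes and under that of protein-coding genes. GACGTG, a sequence read by XBP1 and related factors, was held by 7 (10.1%) against 9.34%, and the E-box CACGTG by 9 of the 69 against 8.77%. CCACG, also read by XBP1 and related factors, was held by 39 (56.5%) against 42.1%, and it overlaps the E-box where CCACGTG occurs. Over protein-coding genes these shares were 11.2%, 10.9% and 50.2%, and GACGTG was then the less common in the family. Among the 17 matched genes called lower after knockdown, 2 held GACGTG, against 4 of the 46 not called. In the sequences above, GACGTG lies on the reverse strand 6 bases before the start of MRPL49 and 30 bases before that of MRPL55. Of the same 17 and 46 genes, 13 and 23 held CCACG. It was also held by 4 of the 4 genes called lower with MKC8866 and by 11 of the 14 called lower with the replicate block. A match describes letters in a window and is not a measured site.

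Knockdown of XBP1, the transcription factor made when IRE1 splices its messenger RNA, left most mitoribosomal protein genes within a small range and moved a minority both ways. After knockdown 18 of the 78 genes were called lower (23.1%, where 18.2% of all 21021 genes tested were) and 6 were called higher (7.69%, against 16.5% of all genes). A call means an adjusted p under 0.05, from the quasi-likelihood test of edgeR. The median log2 fold change was −0.05 over the 78, against 0.01 over all genes tested. Apart from MRPL50, no called gene moved by more than 0.45 on the log2 scale. For 43 of the 54 genes that were not called, the 95% interval of the fold change lay within 1.2-fold either way.

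By subunit, 12 of the 49 large subunit genes were called lower and 6 higher, with a median log2 fold change of −0.05. Of the 29 small subunit genes, 6 were called lower and 0 higher, with a median of −0.05. At an unadjusted p under 0.05, 2 small subunit genes were higher, and DESeq2 called 1. All 4 siXBP1 libraries lay under all 4 siCtrl libraries for 17 of the 78 genes, against 16.7% of all genes tested, and above them for 5, against 15.6%.

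**Figure D2:**
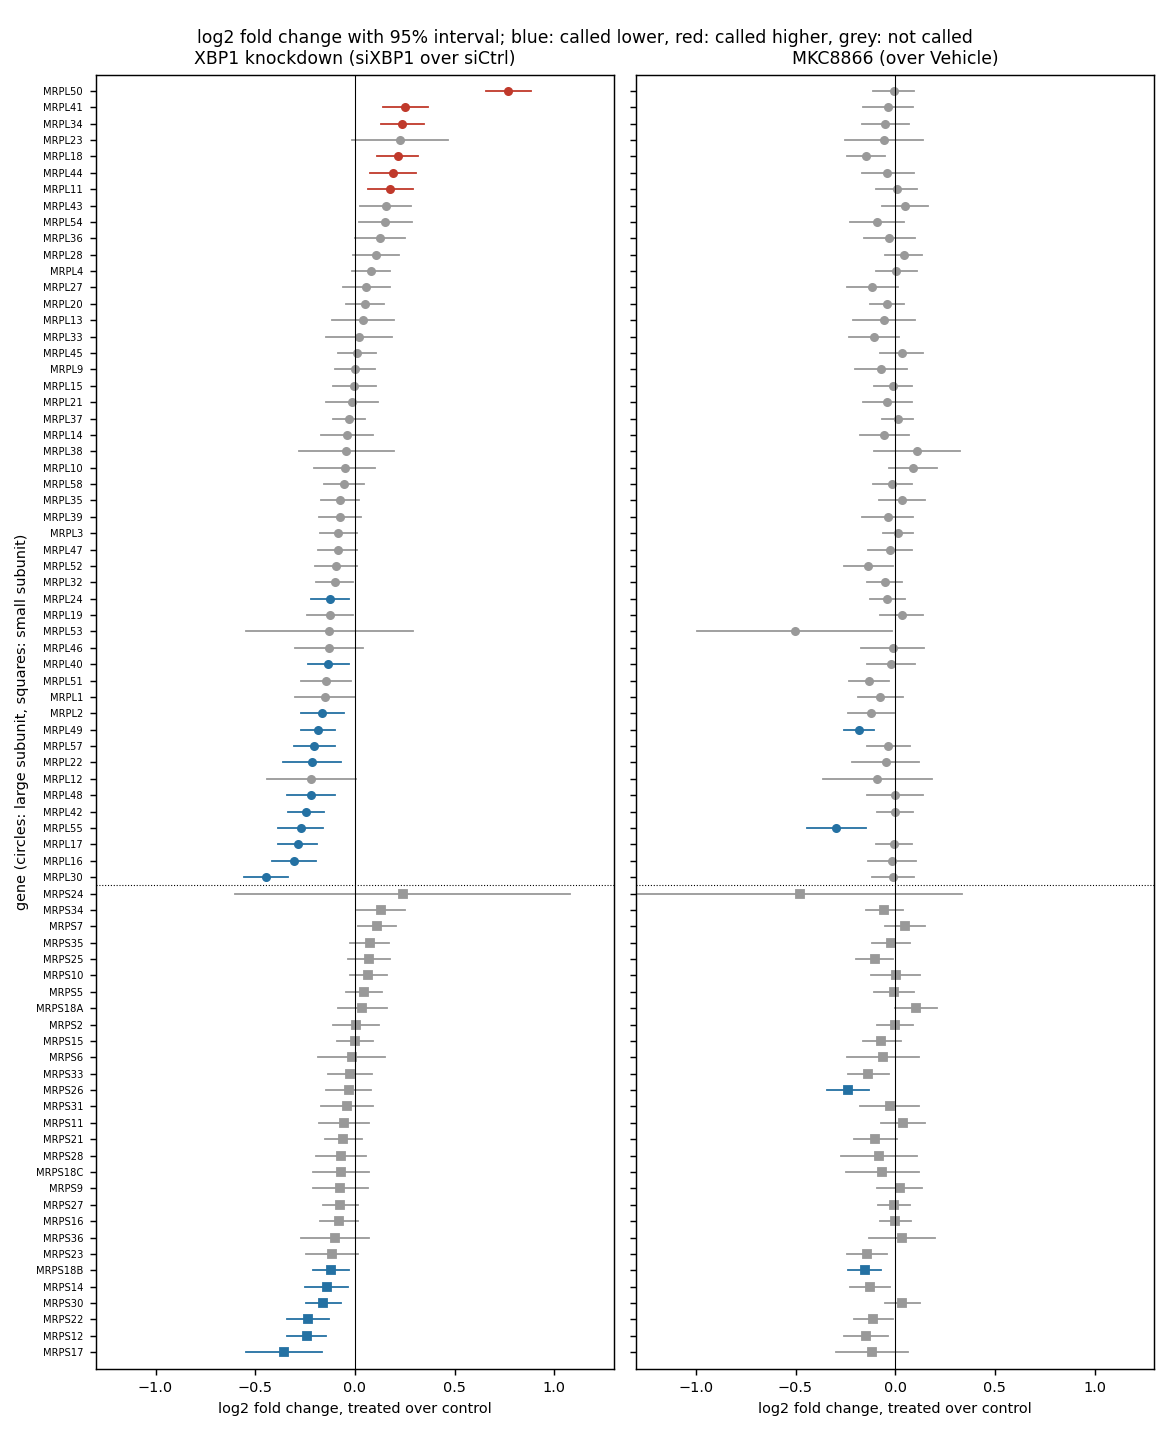
Log2 fold change and 95% interval of each of the 78 genes after XBP1 knockdown (left) and with MKC8866 (right), in the same order, with large subunit genes above the dotted line. Blue marks genes called lower and red genes called higher at an adjusted p under 0.05: 18 and 6 on the left, 4 and 0 on the right. MRPS24 and MRPL53, with few counts, have the widest intervals.

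Among large subunit genes, MRPL30 fell the most after knockdown. It stands at chr2:99181079-99197626 in the Ensembl annotation used by the authors, encodes a protein with a bacterial counterpart, and shares 19.5% of its exonic bases with other annotated genes. Its levels were 47.4, 49.9, 52.3 and 51.9 CPM in siCtrl and 35.6, 35.7, 40.2 and 36.9 CPM in siXBP1. The groups did not overlap, and the log2 fold change was −0.45 (SE 0.05, adjusted p = 4.50e-07). In Vehicle and MKC8866 MRPL30 ranged from 43.7 to 50.4 CPM, so the siXBP1 libraries were the ones set apart.

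MRPL16, MRPL17 and MRPL22 also have bacterial counterparts in the large subunit. MRPL16 had 33.1 to 37.8 CPM in siCtrl and 27.4 to 29.5 in siXBP1 (log2 fold change −0.30), and MRPL17 92.0 to 108 and 78.9 to 83.7 (−0.29). Neither pair of ranges overlapped. MRPL22 had 24.8 to 28.9 and 20.5 to 25.3 CPM, which do overlap, and its call (−0.21, adjusted p = 0.0198) was lost without siCtrl replicate 4 (adjusted p = 0.0923), siXBP1 replicate 1 (0.0994) or siXBP1 replicate 4 (0.0899).

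Proteins found in mitochondrial but not bacterial ribosomes made up the rest of the large subunit genes named as lower. These were MRPL55 (log2 fold change −0.27), MRPL42 (−0.25), MRPL48 (−0.22), MRPL57 (−0.20) and MRPL49 (−0.19), with adjusted p values of 0.00519 or less in edgeR. In each of these 5 the siXBP1 libraries lay under the siCtrl libraries. The 3 further large subunit genes called lower, MRPL2, MRPL40 and MRPL24, fell by 0.12 to 0.16 on the log2 scale, and they are named here after their values were seen, since their calls held in only 5, 2 and 3 of the 8 fits that left out 1 library each.

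In the small subunit the lower genes were led by MRPS17 and MRPS12, counterparts of bacterial proteins, the second of which sits at the decoding centre. MRPS17 had 7.02 to 8.77 CPM in siCtrl and 6.02 to 6.49 in siXBP1 (log2 fold change −0.35, SE 0.09, adjusted p = 0.00398), at 186 to 280 counts per library. MRPS12 had 59.9 to 67.6 and 51.9 to 56.0 CPM (−0.24, SE 0.05, adjusted p = 2.86e-04). MRPS22, found only in mitochondria, had 51.1 to 56.4 and 42.5 to 48.3 CPM (−0.23, SE 0.05, adjusted p = 8.76e-04). All 3 pairs of ranges were separate. MRPS17 shares 27.0% of its exonic bases with other genes and MRPS12 16.3% with SARS2, and MRPS22 shares 1.6% with COPB2 on the opposite strand, whose log2 fold changes were −0.54 after knockdown and −0.35 with MKC8866; its part in the change of MRPS22 was not tested. The remaining small subunit genes called lower were MRPS30, MRPS18B and, named after its value was seen, MRPS14 (−0.14, adjusted p = 0.0381, called in 2 of the 8 fits without 1 library).

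All 6 genes called higher after knockdown encode large subunit proteins, and MRPL50 stood far above the others. MRPL50, at chr9:101387633-101398614, encodes a large subunit protein found only in mitochondria and shares no exonic base with another gene. It had 33.3, 29.6, 31.4 and 33.9 CPM in siCtrl and 54.7, 54.9, 57.6 and 51.7 CPM in siXBP1, with 988 or more counts in every library. The log2 fold change was 0.77 (SE 0.05, adjusted p = 1.33e-10), a fold change of 1.70 with a 95% interval of 1.58 to 1.84, and it was called in all 8 fits that left out a library.

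The siCtrl libraries, not the siXBP1 libraries, were the ones set apart for MRPL50. In Vehicle it had 54.9, 57.0, 53.0 and 56.1 CPM and with MKC8866 52.8, 58.7, 51.4 and 57.1 CPM, so the 12 libraries outside siCtrl ranged from 51.4 to 58.7. A low level with the control siRNA and a high level after the loss of XBP1 cannot be told apart within the knockdown comparison, and the siCtrl and Vehicle cells differ in transfection and in time as well.

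The same check was made for every gene of the family, by asking which group's 4 libraries lay beyond the other 12. The siXBP1 libraries lay under all others for 6 of the 78 genes, MRPL16, MRPL17, MRPL30, MRPL57, MRPS12 and MRPS30, against 8.79% of the 20357 genes tested in both experiments, and above all others for 0, against 7.63%. The siCtrl libraries lay under all others for 3, MRPL50, MRPL18 and MRPL34, against 3.36%, and above all others for MRPL42 alone, against 2.94%. Of the 6 genes called higher after knockdown, 3 thus had siCtrl as the group set apart and 0 had siXBP1. The Vehicle libraries lay above all others for 2 genes, MRPL18 and MRPS26, against 0.383%, and under all others for 0, against 0.447%. Those of MKC8866 lay above all others for 0, against 0.811%, and under all others for 0, against 0.624%.

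The other genes called higher were MRPL41 (log2 fold change 0.25), MRPL34 (0.24), MRPL18 (0.21), MRPL44 (0.19) and MRPL11 (0.18), with adjusted p values between 8.27e-04 and 0.0126 in edgeR. MRPL11, a counterpart of the bacterial protein at the base of the ribosomal stalk, was the only one with overlapping ranges, 35.0 to 39.5 CPM in siCtrl and 38.4 to 43.9 in siXBP1, and PELI3, which shares 4.7% of its exonic bases on the opposite strand, rose as well (0.34, adjusted p = 1.84e-05), a part that was not tested. MRPL41 had 50.3 to 59.5 CPM in siCtrl and 61.6 to 69.9 in siXBP1, beside 62.1 to 70.7 in Vehicle and 55.0 to 69.1 with MKC8866. MRPL34 had 29.9 to 31.9 CPM in siCtrl and 34.4 to 38.7 in siXBP1, beside 36.0 to 43.2 over Vehicle and MKC8866. For MRPL41 and MRPL34 siCtrl had the lowest mean of all groups. A low level with the control siRNA and a rise with the loss of XBP1 cannot be told apart for them. MRPL18, whose protein has a bacterial counterpart, had 50.8 to 58.8 CPM in siCtrl and 62.3 to 67.5 in siXBP1. MRPL44, whose protein has an RNase III fold, had 27.4 to 30.5 and 31.0 to 34.6 CPM.

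**Figure D3:**
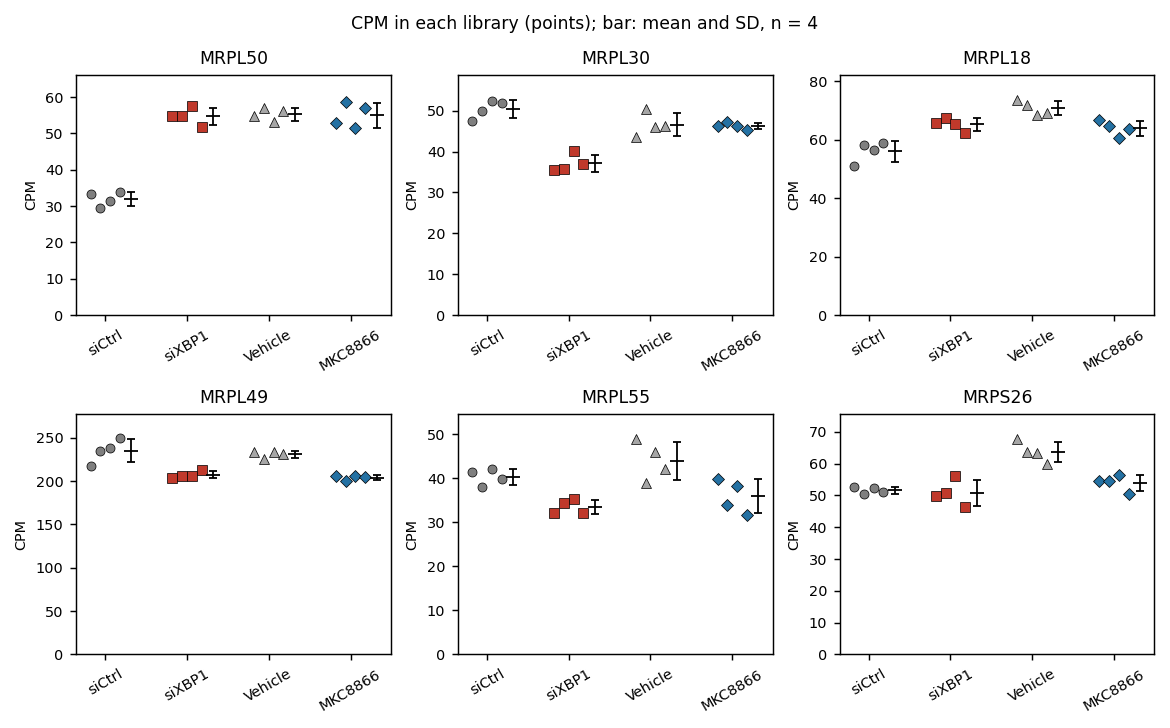
CPM of 6 genes in each library (points) with the mean and SD of 4 libraries. MRPL50 is low in siCtrl alone, at 29.6 to 33.9 CPM, MRPL30 is low in siXBP1 alone, MRPL49 is lower in both treated groups than in both control groups, and MRPS26 is high in Vehicle alone.

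Inhibition of the IRE1 RNase with MKC8866 gave fewer and smaller changes. With MKC8866 4 of the 78 genes were called lower (5.13%, where 3.11% of 21045 genes tested were) and 0 higher (against 1.36%). At an unadjusted p under 0.05, 15 were lower and 0 higher, and DESeq2 called 5 lower and 0 higher. The 4 were MRPL55 and MRPL49 of the large subunit and MRPS26 and MRPS18B of the small subunit. The median log2 fold change was −0.04 for the large and −0.06 for the small subunit genes, against 0.00 over all genes, and 59 of the 78 values were under 0. All MKC8866 libraries lay under all Vehicle libraries for 7 genes, against 5.15% of all genes tested, and above them for 0, against 4.03%.

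Same-numbered libraries of this experiment deviated together to differing degrees, and the fit with the number as a block called more genes. No label states a pairing, so the blocked calls rest on taking the numbers as pairs. With the replicate block 15 of the 78 were lower (19.2%, against 7.05% of all genes) and 0 higher (against 6.0%), where 2 were higher at an unadjusted p under 0.05. These were 6 of the 49 large and 9 of the 29 small subunit genes, and they held all 4 genes called without the block. The 11 further genes, named after their values were seen, were MRPL18, MRPL2, MRPL51 and MRPL52 of the large subunit and MRPS12, MRPS14, MRPS21, MRPS22, MRPS23, MRPS25 and MRPS33 of the small subunit. Their blocked log2 fold changes ran from −0.15 to −0.10. For 68 of the 74 genes not called without the block, the 95% interval of the fold change lay within 1.2-fold either way.

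MRPS26, a small subunit protein found only in mitochondria, fell from 67.7, 63.6, 63.3 and 59.9 CPM in Vehicle to 54.6, 54.6, 56.3 and 50.5 CPM with MKC8866. The log2 fold change was −0.24 (SE 0.05, adjusted p = 0.00406). The Vehicle libraries were the ones set apart, since MRPS26 had 46.3 to 56.1 CPM over siCtrl and siXBP1, and after knockdown its log2 fold change was −0.03 (SE 0.05, adjusted p = 0.719).

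MRPL49, MRPL55 and MRPS18B were the genes called lower in both comparisons, 3 of the 18 called lower after knockdown and 3 of the 4 called lower with MKC8866. Over all genes the same held for 2.48% of 20357, which is 13.2% of those lower after knockdown and 77.2% of those lower with MKC8866, so the share among the 4 was close to that of genes in general. MRPL49 had 218, 234, 238 and 250 CPM in siCtrl, 203, 206, 206 and 213 in siXBP1, 234, 225, 234 and 231 in Vehicle, and 206, 200, 205 and 205 with MKC8866. All 8 treated libraries lay under all 8 control libraries, the only gene of the family for which they did, against 2.18% of the genes tested in both experiments, and all treated libraries lay above all controls for 0, against 0.712%. Its log2 fold changes were −0.19 (SE 0.04, adjusted p = 0.00107) after knockdown and −0.18 (SE 0.04, adjusted p = 0.00236) with MKC8866.

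MRPL49 lies at chr11:65122183-65127371 and overlaps 2 genes on the opposite strand, sharing 11.6% of its exonic bases with SYVN1 and 9.2% with FAU. These stretches largely coincide, since 12.2% of its exonic bases are shared in all. SYVN1, an ubiquitin ligase of the endoplasmic reticulum, had log2 fold changes of −1.45 after knockdown and −1.14 with MKC8866, and FAU ones of −0.12 (adjusted p = 0.0769) and −0.23 (adjusted p = 0.0106). Fragments were counted without regard to strand, so transcripts of SYVN1 or FAU that run into MRPL49 outside the shared exons count as MRPL49, and their part in its change was not tested.

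MRPL55, a large subunit protein found only in mitochondria at chr1:228106679-228109312, shares no exonic base with another gene. It had 41.4, 38.0, 42.1 and 39.8 CPM in siCtrl and 32.1, 34.4, 35.2 and 32.1 in siXBP1, ranges that do not overlap (log2 fold change −0.27, SE 0.05, adjusted p = 3.33e-04). It had 48.8, 39.0, 46.0 and 42.2 CPM in Vehicle and 39.8, 34.0, 38.3 and 31.5 with MKC8866 (−0.30, SE 0.07, adjusted p = 0.0132). In this experiment the highest MKC8866 library lay above the lowest Vehicle library, while within each replicate number MKC8866 was the lower of the pair, and the blocked fit gave an adjusted p of 2.01e-07. Without the block, the MKC8866 call was lost on leaving out Vehicle replicate 1 (adjusted p = 0.0705), Vehicle replicate 3 (0.0540) or MKC8866 replicate 4 (0.0714).

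MRPS18B is 1 of 3 human counterparts of a single bacterial protein. It had 117, 118, 117 and 129 CPM in siCtrl and 113, 116, 110 and 106 in siXBP1, with a log2 fold change of −0.12 (SE 0.04, adjusted p = 0.0338) that was lost with the replicate block (adjusted p = 0.0510) and in 5 of the 8 fits without a library (siCtrl replicate 3 or 4, siXBP1 replicate 1, 3 or 4), with adjusted p values of up to 0.195 without siCtrl replicate 4. It had 114 to 121 CPM in Vehicle and 106 in each of the 4 MKC8866 libraries (−0.15, SE 0.04, adjusted p = 0.0198), and that call was lost without Vehicle replicate 1, Vehicle replicate 4 or MKC8866 replicate 3 (adjusted p = 0.0614, 0.0577 and 0.0594). Its paralogues MRPS18A and MRPS18C had log2 fold changes of 0.04 and −0.07 after knockdown and of 0.10 and −0.07 with MKC8866, none of them called, and they share 47.0% and 40.2% of their exonic bases with genes on the opposite strand.

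Some symbols do not match the place of the protein. MRPS18A and MRPS30 are found in the large subunit in structures of the mitoribosome, and MRPS36 is now counted as a part of the oxoglutarate dehydrogenase complex. MRPS30 had 74.2 to 80.0 CPM in siCtrl and 67.0 to 70.7 in siXBP1 (log2 fold change −0.16, SE 0.04, adjusted p = 0.00513), ranges that do not overlap, and was not called with MKC8866 (0.04, SE 0.04). MRPS36 was called in neither comparison (−0.10 and 0.03, SE 0.08 in each).

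The difference between both responses was tested over the 16 libraries as an interaction, knockdown minus MKC8866. The kind of inhibition cannot be told apart in it from the experiment, which differs in transfection, time and control. The interaction was called for 11 of the 78 genes, 5 of them lower after knockdown relative to MKC8866 (6.41%, against 12.7% of 20357 genes tested) and 6 higher (7.69%, against 10.6%). The negative differences were those of MRPL30 (−0.43), MRPL16 (−0.28), MRPL17 (−0.28), MRPL42 (−0.24) and MRPS30 (−0.19). The positive ones were those of MRPL50 (0.78), MRPL18 (0.36), MRPL41 (0.29), MRPL34 (0.29), MRPL44 (0.23) and MRPS26 (0.21). In edgeR the adjusted p values ran from 1.76e-09 for MRPL50 to 0.0475 for MRPL44.

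For MRPL18 the values of both comparisons lay on opposite sides of 0. They also did for MRPL50, MRPL41, MRPL34, MRPL44 and MRPS30, but there the MKC8866 value was not called and was smaller than its SE. These MKC8866 values ran from −0.05 (MRPL34, SE 0.06) to 0.04 (MRPS30, SE 0.04). MRPS26 was called with MKC8866 alone. MRPL18 was higher after knockdown and had a log2 fold change of −0.15 with MKC8866. That value was called with the replicate block (adjusted p = 8.42e-04 in edgeR) and not in the main edgeR fit without it (0.0713). Without the block, DESeq2 called it (adjusted p = 0.0307), as did edgeR without MKC8866 replicate 2 (0.0451). The MRPL18 levels of the treated groups overlapped (62.3 to 67.5 CPM in siXBP1, 60.5 to 66.6 with MKC8866). Those of siCtrl (50.8 to 58.8) lay under all other libraries and those of Vehicle (68.5 to 73.6) above them, so the controls were the groups set apart. The calls for MRPL44 and MRPS26 were lost in 10 and 9 of the 16 fits that left out 1 library each, with adjusted p values of up to 0.126 (without MKC8866 replicate 4) and 0.117 (without siXBP1 replicate 3). MRPL49, MRPL55 and MRPS18B had interaction values of −0.00 (SE 0.05), 0.02 (SE 0.10) and 0.04 (SE 0.06), none of them called.

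**Figure D4:**
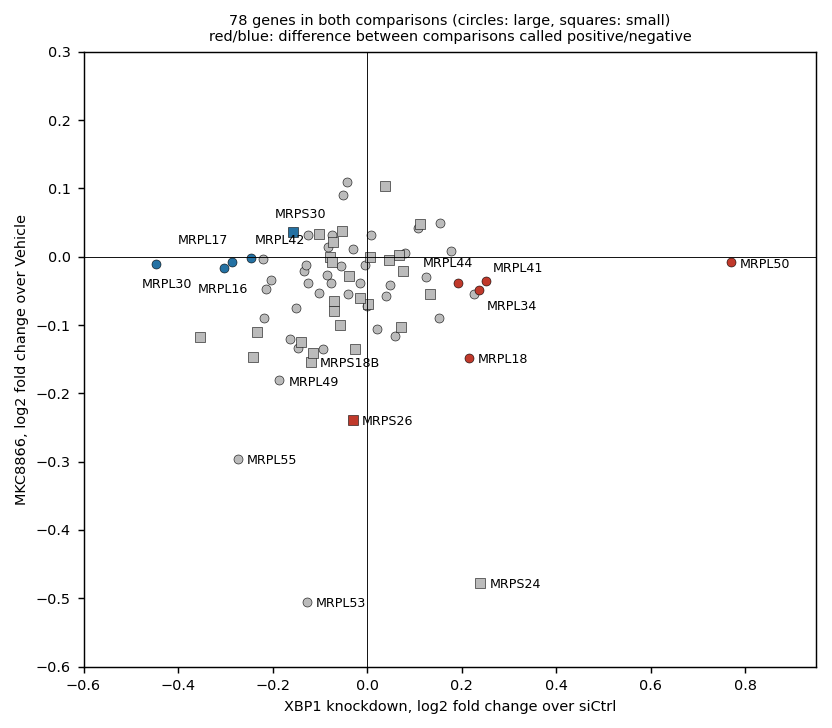
Log2 fold change of each of the 78 genes after XBP1 knockdown (horizontal axis) and with MKC8866 (vertical axis); red and blue mark genes whose difference between the comparisons was called positive (6) or negative (5). MRPL50 lies alone at 0.77 and −0.01, and MRPL55 and MRPL49 lie low on both axes.

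The low-count genes gave no call in either comparison. MRPL53 had 1.08 to 1.38 CPM in Vehicle and 0.597, 1.41, 0.644 and 0.873 CPM with MKC8866 (log2 fold change −0.51, SE 0.24, adjusted p = 0.309), and MKC8866 replicate 2 lay above all Vehicle libraries. Without that library the value was −0.83 (adjusted p = 0.0314). MRPS24 had an interval of 0.409- to 1.26-fold with MKC8866, and MRPL38 one of 0.928- to 1.25-fold.

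The genes that build and serve the mitoribosome were read beside its proteins. Of 5 subunits with other names, GADD45GIP1 (log2 fold change 0.29) and AURKAIP1 (0.13) rose and PTCD3 (−0.26) fell after knockdown. With MKC8866 0 were called, where 1 was lower at an unadjusted p under 0.05 and DESeq2 called 0. GADD45GIP1 had its lowest mean in siCtrl, 31.6 CPM, beside 38.7 in siXBP1, 42.2 in Vehicle and 40.7 with MKC8866. A low level with the control siRNA and a rise with the loss of XBP1 cannot be told apart for this gene. Of 27 genes of mitoribosome assembly and ribosomal RNA modification, 9 were called lower and 3 higher after knockdown, and 1 lower with MKC8866. With the replicate block, 3 were lower and 2 higher with MKC8866.

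MPV17L2, an inner membrane protein needed for mitoribosome assembly, changed more after knockdown than any of the 78 genes. It fell from 68.3 ± 4.35 CPM (SD, n = 4) in siCtrl to 23.2 ± 1.11 in siXBP1 (log2 fold change −1.56, SE 0.05, adjusted p = 8.36e-16). It fell from 62.6 ± 3.93 CPM in Vehicle to 50.6 ± 1.43 with MKC8866 (−0.31, SE 0.05, adjusted p = 1.74e-04). MRM3, a ribosomal RNA methyltransferase, and RPUSD4, a pseudouridine synthase, fell after knockdown (−0.38 and −0.36).

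Of 17 mitochondrial translation factors, 2 were called lower and 5 higher after knockdown, with a median log2 fold change of 0.03. PDF and MTFMT, which remove and add the formyl group of the first methionine, rose by 0.83 and 0.67, but siCtrl had the lowest mean of the 4 groups for both. PDF had a mean of 4.78 CPM in siCtrl, 8.57 in siXBP1, 7.82 in Vehicle and 7.74 with MKC8866, and MTFMT one of 12.9, 20.6, 18.9 and 20.5 CPM. A low level with the control siRNA and a rise with the loss of XBP1 cannot be told apart here either. GUF1, an elongation factor, rose by 0.29. With MKC8866, MTRFR, a rescue factor, was the 1 called lower (−0.17). Its mean was highest in Vehicle, 67.19 CPM, beside 59.65 with MKC8866, 53.76 in siCtrl and 55.08 in siXBP1. Of 15 genes of mitochondrial DNA transcription, replication and RNA processing, 4 were lower and 2 higher after knockdown and 1 lower with MKC8866. TFB2M, the transcription initiation factor of mitochondrial DNA, was lower in both (−0.40 and −0.21), and POLG2, a polymerase subunit, and TWNK, the helicase, fell after knockdown (−0.56 and −0.27).

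The messenger RNAs that the mitoribosome translates are encoded by mitochondrial DNA. With MKC8866, of the 13 mitochondrially encoded messenger RNAs, 5 were called lower, with a median log2 fold change of −0.12. With the replicate block 11 were lower, against 7.05% of all genes. MT-ND4L fell from 1329 ± 63.3 CPM to 1128 ± 67.9 (−0.24, SE 0.04), MT-CO1 by 0.21 and MT-CYB by 0.18. After knockdown 0 were called, where at an unadjusted p under 0.05 1 was higher, DESeq2 called 0 and the replicate block 2 higher, MT-ND2 and MT-ND3 (adjusted p = 0.0379 and 0.0341), named after their values were seen. The sums of the 13 ran from 17210 to 32480 CPM within siCtrl, a wider spread than in any other group. Of both mitochondrial ribosomal RNAs, MT-RNR1 rose after knockdown (0.34, SE 0.08, adjusted p = 0.00220) and MT-RNR2 was not called (0.10, SE 0.10).

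Nuclear genes of the respiratory chain and of the cytosolic ribosome gave the scale. Of 75 nuclear respiratory chain and ATP synthase genes, 8 were lower and 11 higher after knockdown, and 3 lower with MKC8866. SDHD and ATP5PB, of complexes II and V, fell by 1.02 and 0.64 after knockdown. NDUFC2, NDUFA1 and ATP5MC1 fell with MKC8866, by 0.23, 0.20 and 0.19. Of 82 cytosolic ribosomal protein genes tested, 4 were lower and 9 higher after knockdown, among them RPS7 (−0.78) and RPL19 (−0.44), and 5 lower with MKC8866, among them RPL9 (−0.25), FAU (−0.23) and RPL31 (−0.21). With the replicate block, 29 of the 75 and 49 of the 82 were lower with MKC8866, against 7.05% of all genes. Beside these counts stand the 15 of 78 mitoribosomal protein genes. Without the block, 68 of the 75 and 79 of the 82 log2 fold changes with MKC8866 were under 0, beside 59 of the 78. The difference between the lists was not tested.

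**Figure D5:**
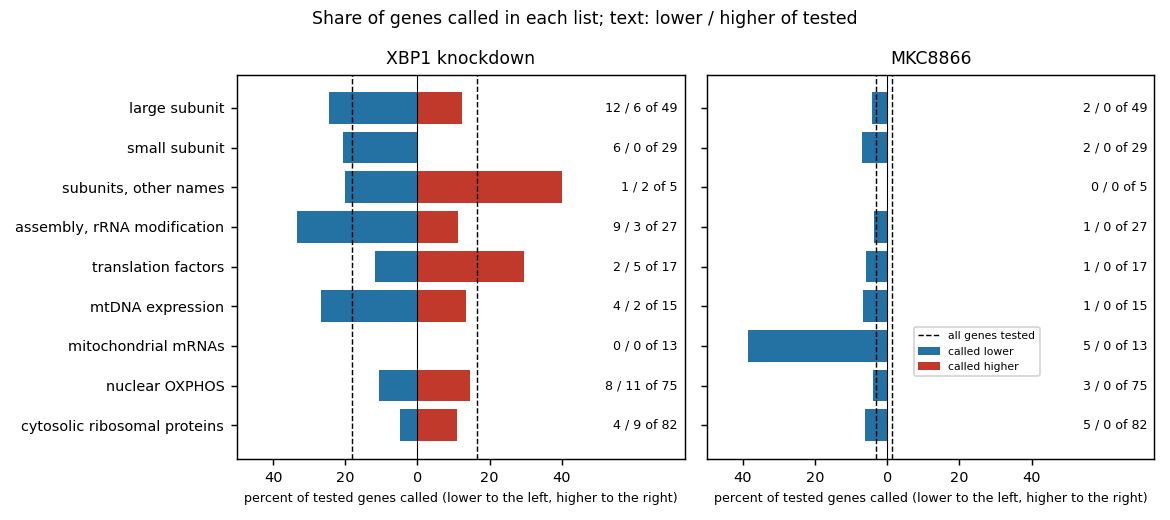
Percent of the tested genes called lower (blue, to the left) and higher (red, to the right) in each list after XBP1 knockdown and with MKC8866, without the replicate block, with counts at the right edge; dashed lines give the share of all genes tested (18.2% and 16.5% after knockdown, 3.11% and 1.36% with MKC8866). The large subunit bars end at 12 lower and 6 higher of 49 after knockdown, and the small subunit bars at 6 and 0 of 29.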

How the data were processed

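Per the file headers and the study's methods, the authors aligned paired-end reads of stranded libraries to GRCh38 with STAR 2.5.2a and deposited raw counts per gene made with featureCounts 1.5.0 on Ensembl release 85, without a strand setting; exonic length, taken from the deposited table, was used only for levels per kb. The fit used edgeR 4.0.16 (TMM, quasi-likelihood, Benjamini-Hochberg over all genes tested, two-sided), each experiment on its own, keeping genes that exceeded 5 counts in 1 or more libraries of every group, and the interaction over 16 libraries. CPM were scaled by TMM over the 16 libraries. DESeq2 1.42.0 and other settings were alternatives.

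Counts were simulated over 21021 genes with the knockdown's means. The 200 changed genes were drawn from those with mean counts like most of the family, which left out counts as low as those of MRPS24 and MRPL53. Of the genes changed 1.2-fold 77.6% were called, and of those changed 1.5-fold 100%. Over 21045 genes with the MKC8866 experiment's means, these shares were 79.1% and 100%. In the data far more genes were called after knockdown, 3836 lower and 3475 higher. The simulated spread depended on level alone, and no correlation of same-numbered libraries was simulated. The shares may thus differ from those of the fits to the data.

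Deviations of same-numbered libraries had correlations of 0.119 to 0.405 in the MKC8866 experiment (13956 genes) and of −0.001 to 0.069 in the knockdown (13981). Differently numbered libraries also reached such values. Vehicle 3 correlated more with MKC8866 1 (0.175) than with MKC8866 3 (0.119), and Vehicle 1 with MKC8866 3 had 0.153. In the knockdown, siCtrl 2 with siXBP1 4 had 0.154. No label states a pairing. The genes and lists were chosen with earlier results of these data known. Named were, per comparison, up to 12 genes called in each direction by size, those called in both, the 8 smallest interaction p values, the 3 highest and 3 lowest levels, MRPL49, genes of debated placement, and the top 3 called genes of other lists. Some genes that this rule selects from the other lists are not reported here.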

Additional observations from a re-analysis of the deposited data

Results flagged for a closer look

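In 2 groups 1 library stood apart from the other 3 by Dixon's ratio. MRPL11 had 38.4 CPM in siXBP1 replicate 1, where the nearest of the others had 42.9, and MRPS18B had 128.6 CPM in siCtrl replicate 4, where the nearest had 118.4. Over 128 such groups examined, about 1 in 20, or 6.4, would be marked with no cause.

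For 11 genes the response to the knockdown differed from that to MKC8866 in the interaction test (knockdown minus MKC8866, log2). The difference was 0.78 for MRPL50, 0.36 for MRPL18, 0.29 for MRPL41, 0.29 for MRPL34, 0.23 for MRPL44 and 0.21 for MRPS26. It was −0.43 for MRPL30, −0.28 for MRPL16, −0.28 for MRPL17, −0.24 for MRPL42 and −0.19 for MRPS30. The treatment and the experiment cannot be told apart in this test. The siCtrl libraries lay beyond all others for MRPL50, MRPL18, MRPL34 and MRPL42, and the Vehicle libraries for MRPL18 and MRPS26. Those of siXBP1 did so for MRPL30, MRPL16, MRPL17 and MRPS30.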

How the results depend on the processing

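Of the counts of calls after knockdown, those of large subunit genes lower (12) and higher (6) and of small subunit genes lower (6) stayed within 1.5 times under every alternative run, and the replicate block gave 11, 6 and 4. The count of small subunit genes called higher was 0, and 1 with DESeq2, with RLE size factors and with at least 10 counts in every library, 2 with no filter, and 0 to 2 without 1 library. With MKC8866, 2 large and 2 small subunit genes were lower, 6 and 9 with the replicate block, 1 and 1 at an adjusted p under 0.01, and 1 to 5 and 1 to 4 without 1 library. The highest counts came without MKC8866 replicate 2 (5 and 4). A count of 1 came without Vehicle replicate 1 in both subunits, without Vehicle replicate 3 or MKC8866 replicate 4 in the large, and without Vehicle replicate 4 or MKC8866 replicate 3 in the small subunit. The cause was not tested. The count of small subunit genes higher after knockdown was above 0 without siCtrl replicate 1 or 4 (1 in each) or siXBP1 replicate 1 (2). The interaction called 11 genes, 7 at an adjusted p under 0.01, 15 with the replicate block and 9 to 14 without 1 library. Leaving out the 10 genes that share over 25% of their exonic bases, an alternative chosen after seeing the data, gave 12, 6, 5 and 0 after knockdown and 2 lower in each subunit with MKC8866. No log2 fold change of a named gene that was called changed its sign under any alternative. Counts of 5 to 47 per library limit MRPS24 and MRPL53.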

Other observations

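Genes named as regulators of nuclear-encoded mitochondrial proteins were read beside the family. Of 9 such transcription factors and coactivators, 4 were called higher and 2 lower after knockdown, and 0 higher and 1 lower with MKC8866, where DESeq2 also called 0 higher and at an unadjusted p under 0.05 0 were higher. PPARGC1A, a coactivator of mitochondrial biogenesis, rose from 2.18 ± 0.338 CPM (SD, n = 4) to 4.57 ± 0.370 (log2 fold change 1.06, SE 0.13, adjusted p = 7.50e-07 in edgeR). NRF1, an activator of genes for mitochondrial proteins, rose from 37.9 ± 1.59 to 60.9 ± 2.49 CPM (0.68, SE 0.05, adjusted p = 1.61e-10). PPRC1, a related coactivator, fell (−0.40, SE 0.04, adjusted p = 2.67e-07), as did SP1 (−0.39, adjusted p = 2.65e-07), which was also the gene called lower with MKC8866 (−0.15, SE 0.04, adjusted p = 0.0369).

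Of 11 genes of mitochondrial protein folding and proteolysis, 4 were called higher and 2 lower after knockdown. ATF5, a transcription factor of the mitochondrial unfolded protein response, rose by 0.37 and LONP1, the matrix protease, by 0.22, while YME1L1, an inner membrane protease, fell by 0.26 on the log2 scale, with adjusted p values of 6.59e-05 or less in edgeR. With MKC8866 0 were called, where edgeR had 1 lower at an unadjusted p under 0.05 and DESeq2 called 0.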
